A study of Homo sapiens with 8 samples.

Results

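Long non-coding RNA (lncRNA) genes were taken from the site pairs of the deposited 3′-end comparisons by their symbols. These were LINC genes, snoRNA hosts (SNHG genes, with SNHG16 left out, and GAS5), microRNA hosts (names ending in HG), NEAT1 and MALAT1. Antisense (-AS), divergent (-DT) and intronic (-IT) transcripts, and genes listed under a clone name starting with AC, AL or AP, were also taken. This gave 66 pairs of poly(A) sites from 46 genes, out of 7615 pairs from 3656 genes. The cells were MDA-MB-231, which is a line from a human triple-negative breast cancer, in which a catalytically dead Cas9 fused to the KRAB repressor (CRISPR interference) lowered transcription of the targeted gene. The dCas9-KRAB cells, controls included, were a sorted population made by lentiviral delivery and are not described as 1 clone. All 4 groups carried a pair of guides and had 2 replicates each: a double non-targeting control, HNRNPC knockdown (KD, with a non-targeting guide beside it), PABPC4 KD (likewise) and HNRNPC/PABPC4 double KD. The comparisons address how the loss of each protein, or of both, changes the choice between poly(A) sites.

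A lncRNA that is polyadenylated is cleaved and tailed like an mRNA, and a hexamer such as AAUAAA shortly before the cleavage site recruits the cleavage machinery. In a gene with several such sites, a proximal site gives a short transcript and a distal site a longer one, which in a host gene can decide whether a microRNA hairpin lies inside the RNA. HNRNPC is a nuclear RNA-binding protein that binds runs of U, including those of antisense Alu repeats, and PABPC4 is a poly(A)-binding protein that moves between the nucleus and the cytoplasm.

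The value of each pair is logAPAR: how much the usage of the proximal site relative to the distal site changed from control to KD, as a natural log. All KDs were set against the same control, and negative values mean more use of the distal site. The tables hold no values per library, so neither replicate spread nor total depth per sample is known, and each p-value, and each standard error (SE) derived from it, covers counting error only. One table's name mixes both targets, and by elimination it was taken as that of PABPC4 KD. The p-values come from APAlog, the authors' multinomial logistic regression, and adjusted p-values are Benjamini-Hochberg values over the whole table. The values compare sites within a gene and hold no expression levels, so the KD could not be checked here. HNRNPC and PABPC4 are themselves not among the listed genes.

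The HNRNPC KD table listed 52 lncRNA pairs of 38 genes among 5861 pairs, that of PABPC4 KD held 46 pairs of 36 genes among 5953, and that of double KD 60 pairs of 40 genes among 6461. All 3 tables shared 42 of the pairs, from 32 genes. By the listed symbols, 9 genes were LINC genes, 13 antisense, 3 divergent and 15 clone-named. A further 3 were microRNA hosts, 1 a snoRNA host (SNHG10) and 2 the nuclear-retained NEAT1 and MALAT1. No intronic transcript and no GAS5 pair was listed. The symbols were checked against Gencode release 44: 38 of the 46 genes, with 51 of the 66 pairs, are annotated there as lncRNA. Of the rest, 5 are protein-coding and 3 are pseudogenes. The gene listed as AC093012.1 has the identifier of IRAK4 (ENSG00000198001), a kinase of interleukin-1 and Toll-like receptor signalling, and AC022966.1 that of USP36, a ubiquitin protease. AC244197.3, AC023055.1 and AL136295.1 are protein-coding too, and the listed transcript ends of the latter pair of genes lie on exons of SARNP and TM9SF1 on the same strand, so their reads cannot be told apart from those genes. TP73-AS1, AC006001.3 (RABGEF1P1) and AL049737.1 are annotated as pseudogenes by their gene identifiers. The listed transcript of AC006001.3, ENST00000449307, is itself annotated as lncRNA. Its end at 66526088 on chromosome 7 lies outside RABGEF1P1, which spans 66554588 to 66576923. LINC01578 is CHASERR, a lncRNA that lies next to CHD2 and represses it, and AC004477.1 is NFE2L1-DT. RNASEH1-AS1 is named RNASEH1-DT there, AC016747.1 is C2orf74-DT and AL928654.1 is MTA1-DT. The snoRNA SNORA13 lies within EPB41L4A-AS1 and the microRNA MIR4712 within GABPB1-AS1. The classes used here follow the listed symbols and were not changed for these genes. In the other direction, 14 genes of the tables that are annotated as lncRNA carry symbols outside the pattern used here.

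Of 101 sites, 87 were named by a transcript and 14 by a position. The annotation holds 69 of the 87 transcripts with the same version, and both ends could be placed on hg38 for 34 pairs. In these, the ends lay 437 to 46414 nt apart, with a median of 1927 nt against 2860 nt over the 1224 placed pairs of all genes. The proximal end fell inside the last exon of the distal transcript in 25 pairs, in an earlier exon in 6 and in an intron in 3. Only 3 of the 14 positions lay inside their gene on hg38, which means that they refer to a different, unnamed build, and no position was converted.

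The sequences that precede the ends are shown for the genes whose values or structure the results turn on. Each is the last 30 bases of the transcript, 5′ to 3′ on hg38, with AATAAA or ATTAAA in capitals. The ends of LINC00963 (plus strand) are ordered from proximal to distal.
ENST00000654131, chr9:129503902-129503931: accctaatgtagtgtctttagaccgtgcaa
ENST00000608272, chr9:129505098-129505127: ctgttgaaaaagaccctgagctataccagc
ENST00000664811, chr9:129506919-129506948: ttttaATTAAAaaatttcttcaATTAAAaa
ENST00000419300, chr9:129512650-129512679: ttAATAAAatattttattccatcttctcta
Those of LINC01578 (CHASERR, plus strand) show a proximal end without either hexamer but with a run of 11 T, followed by 2 ends with AATAAA.
ENST00000554133, chr15:92898101-92898130: gggtttttttttttaagtggaagtttaatt
ENST00000653163, chr15:92898714-92898743: tggggatttagAATAAAtgaattgcaccct
ENST00000557682, chr15:92899672-92899701: ggatattcttgAATAAAaattggttgcatt
Those of FGD5-AS1 (minus strand) show a proximal end whose own last bases are a run of A, where oligo(dT) can prime without a poly(A) tail.
ENST00000417835, chr3:14944680-14944709: atgagcgaaactgtctcaaaaaaaaaaaaa
ENST00000655923, chr3:14942789-14942818: aattacatggttgtaaAATAAActtttaaa
Those of MIRLET7BHG (plus strand) lie on either side of let-7 hairpins.
ENST00000435439, chr22:46111446-46111475: tggctaacacggtgaaaccccctgtctact
ENST00000360737, chr22:46113899-46113928: tagattcAATAAAgctgttctgaccatgaa
Those of NEAT1 (plus strand) are the ends of its short and its long form.
ENST00000670617, chr11:65426484-65426513: tcttcccctttacagcacaAATAAAgtttg
ENST00000501122, chr11:65445511-65445540: ctgtgaaagagtgagcaggaaaaagcaaaa

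**Figure D1:**
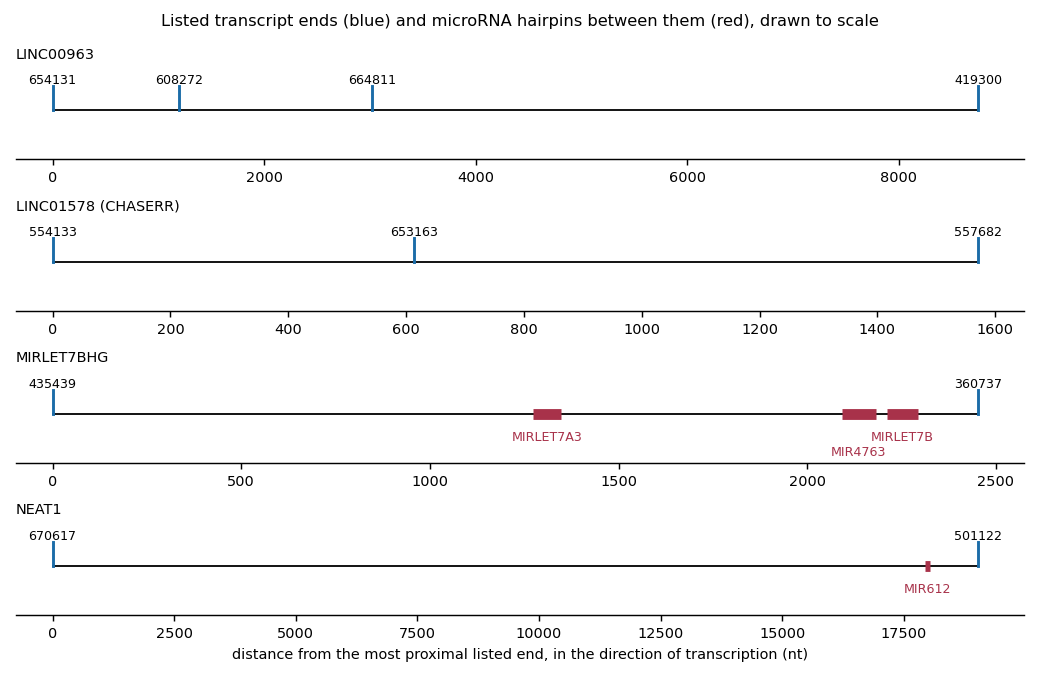
Distance in nt of each listed transcript end (blue, labelled by the last digits of its name) from the most proximal listed end, for LINC00963, LINC01578, MIRLET7BHG and NEAT1, with microRNA hairpins between the ends in red. The ends of LINC00963 span 8748 nt, those of LINC01578 1571 nt, those of MIRLET7BHG 2453 nt with 3 hairpins between them, and those of NEAT1 19027 nt with 1 hairpin.

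Over all placed lncRNA ends, 34 of 69 (49.3%) had AATAAA or ATTAAA in the last 40 bases, against 2801 of 4220 ends (66.4%) of all genes. Of the proximal ends, 11 of 33 (33.3%) had a hexamer, against 429 of 1356 (31.6%). Of the distal ends, 25 of 39 (64.1%) had a hexamer, against 2491 of 3134 (79.5%). A run of 5 T in the last 100 bases is the kind of sequence that HNRNPC binds. It was present at 7 of 33 proximal lncRNA ends (21.2%) and at 303 of 1356 proximal ends of all genes (22.3%). At distal ends the run was less frequent in lncRNA genes, with 7 of 39 (17.9%) against 1143 of 3134 (36.5%). Over all placed ends the shares were 13 of 69 (18.8%) and 1380 of 4220 (32.7%). Words of the Alu repeat in the sense direction (CAGCCTGGG, CTGTAATCC or TCTCTACTA, transcript strand, last 100 bases) were found at 11 of 69 lncRNA ends (15.9%) and at 188 of 4220 ends (4.45%). The antisense words (CCCAGGCTG, GGATTACAG or TAGTAGAGA), which mark the U-rich orientation, were found at 0 of 69 lncRNA ends and at 10 of 4220 (0.237%). A-rich genomic sequence in the 20 bases after the end was defined as 6 A in a row, or 12 A or more in all. It was present at 8 of 69 lncRNA ends (11.6%) against 403 of 4220 (9.55%). At proximal ends the shares were 4 of 33 (12.1%) against 321 of 1356 (23.7%). At distal ends they were 4 of 39 (10.3%) against 146 of 3134 (4.66%). A run of A inside the transcript is not counted here, so the proximal end of FGD5-AS1 shown above is not among the A-rich ends. The A-rich shares are therefore not a full count of ends where oligo(dT) could prime without a tail. These shares describe the letters near annotated ends and were given no test.

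The first question was which lncRNA genes changed their poly(A) site in HNRNPC KD. Past the study's threshold, p below 0.01, were 3 of 52 lncRNA pairs, where 2.08% of all pairs in the table passed. They came from 2 genes, LINC00963 and LINC01578, and all 3 shifted to the distal site. At an adjusted p below 0.05 no lncRNA pair passed, where 0.427% of all pairs did, and neither gene passed after correction. At p below 0.05 there were 5 pairs of 3 genes (all pairs, 6.77%), all toward the distal site. The added pairs were a further one of LINC01578 and that of FGD5-AS1.

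LINC00963, an intergenic lncRNA on chromosome 9, had the largest shift. From ENST00000664811 to ENST00000419300, 5731 nt further, logAPAR was −2.84 ± 1.03 (SE; the authors' p = 0.00602, adjusted p = 0.388), a 17.1-fold change of the ratio with a 95% interval of 2.25 to 129. From ENST00000654131 to the same distal end it was −3.22 ± 1.24 (the authors' p = 0.00911, adjusted p = 0.461). The 2 proximal ends did not separate from each other, with −0.38 ± 1.13.

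The reads behind these values could be rebuilt where a gene had 3 or more shared sites, because each SE follows from the reads of the sites compared. This was possible for 7 of the 46 genes, in units of the authors' normalised reads with both replicates summed. At the distal end ENST00000419300 of LINC00963, control had 1.65 reads, HNRNPC KD 19.3 and double KD 16.6. ENST00000664811 had 6.0, 4.09 and 4.21 reads in the same order, and ENST00000654131 had 3.63, 1.68 and 4.71. The change was therefore a gain at the distal end, from 14.7% of the reads at the 3 rebuilt ends in control to 76.9% in HNRNPC KD (the fourth listed end, ENST00000608272, could not be rebuilt), on a control value below 3 reads that sets the width of the interval. In the PABPC4 KD table the distal end was not listed, and the pair of the other ends had a logAPAR of −0.03 ± 1.04. Pairs with the distal end were thus listed only for HNRNPC KD and double KD, where it had 19.3 and 16.6 reads. The rule for listing a pair is not given. An end this low in control may be listed only where a KD is high, which was not tested.

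LINC01578 (CHASERR) had a logAPAR of −3.00 ± 1.13 from ENST00000554133 to ENST00000557682 (the authors' p = 0.00825, adjusted p = 0.442), a 20-fold change of the ratio with an interval of 2.17 to 184. From ENST00000653163 to the same end the value was −2.96 ± 1.19 (the authors' p = 0.0131). At ENST00000557682, the most distal end, the reads were 0.827 in control. HNRNPC KD had 19, PABPC4 KD 4.38 and double KD 4.71. At the main end, ENST00000554133, they were 77.5, 89.0, 70.6 and 105, and at ENST00000653163 they were 11.5, 13.7, 17.6 and 26.1. HNRNPC KD thus had the highest level at the most distal end and control the lowest. The control value of 0.827 reads is near the floor and sets the width of the interval, so the size of the fold change is uncertain. The proximal and middle ends kept a ratio within error in HNRNPC KD, with −0.04 ± 0.43.

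**Figure D2:**
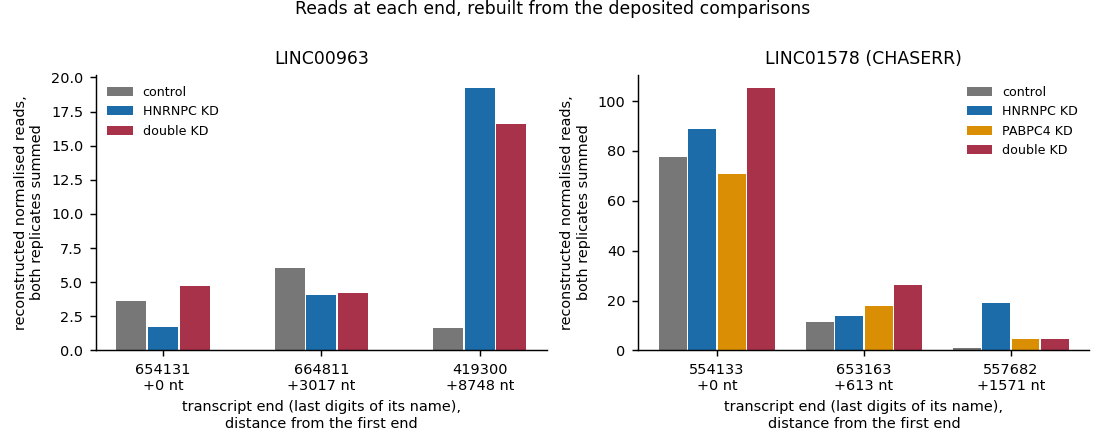
Reconstructed normalised reads (both replicates summed, linear axis from 0, no replicate error available) at each end of LINC00963 and LINC01578 by group, ordered from proximal to distal. At LINC00963 the most distal end holds 1.65 reads in control and 19.3 in HNRNPC KD, and PABPC4 KD could not be rebuilt. At LINC01578 the most distal end holds 0.827 reads in control and 19 in HNRNPC KD.

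In PABPC4 KD, 0 of 46 lncRNA pairs passed p 0.01 in APAlog, where 0.756% of all pairs passed. At p below 0.05 there was 1 pair (all pairs, 4.03%), and at an adjusted p below 0.05 none (all pairs, 0.0168%). The 1 pair was that of LINC00261, a lncRNA on chromosome 20 beside FOXA2, with a logAPAR of −1.86 ± 0.86 (the authors' p = 0.0301, adjusted p = 0.951). In the other tables the same pair had −0.45 ± 0.69 in HNRNPC KD and −1.60 ± 0.65 in double KD (the authors' p = 0.0138). At the median SE of 0.864, a lncRNA pair needed an absolute logAPAR of 2.23 to reach p 0.01, which no lncRNA pair in this table reached.

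In double KD, 1 of 60 lncRNA pairs passed p 0.01, where 4.33% of all pairs passed. The same pair was the only lncRNA pair past an adjusted p of 0.05 (all pairs, 2.23%). It belonged to AC093012.1, whose identifier is that of the protein-coding gene IRAK4, so among the genes annotated as lncRNA 0 pairs passed. From the position chr12:44181891 (plus strand, build not named) to ENST00000613694, logAPAR was −1.54 ± 0.36 in double KD (the authors' p = 1.7e-05, adjusted p = 0.00174), a 4.66-fold change of the ratio toward the distal site with a 95% interval of 2.31 to 9.39. In HNRNPC KD the value was 0.20 ± 0.42 and in PABPC4 KD −0.13 ± 0.41, both within error of 0. Each of its sites had at least 7.82 reads in control and in double KD, the lower bound that the SE allows.

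At p below 0.05 the double KD table held 8 lncRNA pairs of 8 genes (all pairs, 9.12%), 5 toward the distal and 3 toward the proximal site. The 8 were AC093012.1, LINC00963, LINC00261, FGD5-AS1, TP73-AS1, PXN-AS1, PAX8-AS1 and AC004477.1, and all but the first and LINC00963 are named here after their values were known. Just outside p 0.01 was LINC00963, from ENST00000664811 to ENST00000419300, with −2.66 ± 1.03 (the authors' p = 0.010, adjusted p = 0.231). FGD5-AS1 had −0.71 ± 0.29 in double KD (the authors' p = 0.0139), −0.66 ± 0.31 in HNRNPC KD (p = 0.0315) and −0.40 ± 0.32 in PABPC4 KD (p = 0.209). Its proximal end is the A-run end shown above, and the share of its reads that mark a tail was not tested. TP73-AS1, on the strand opposite TP73, had −1.48 ± 0.69 (the authors' p = 0.0333).

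The pairs with a positive value in double KD were those of PXN-AS1, PAX8-AS1 and AC004477.1. PXN-AS1, antisense to the paxillin gene, had 1.30 ± 0.53 (the authors' p = 0.0150) across ends 441 nt apart, with 0.20 ± 0.45 in HNRNPC KD and −0.07 ± 0.58 in PABPC4 KD. PAX8-AS1 had 1.77 ± 0.83 (the authors' p = 0.0341), and 1.01 ± 0.89 in HNRNPC KD. AC004477.1 (NFE2L1-DT), divergent from the gene of the stress transcription factor NFE2L1, had 1.64 ± 0.82 (the authors' p = 0.0454) in double KD against −1.45 ± 1.01 in HNRNPC KD. Apart from AC093012.1, none of the 8 genes passed an adjusted p of 0.05, and the smallest adjusted p among the others was 0.231, that of LINC00963.

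**Figure D3:**
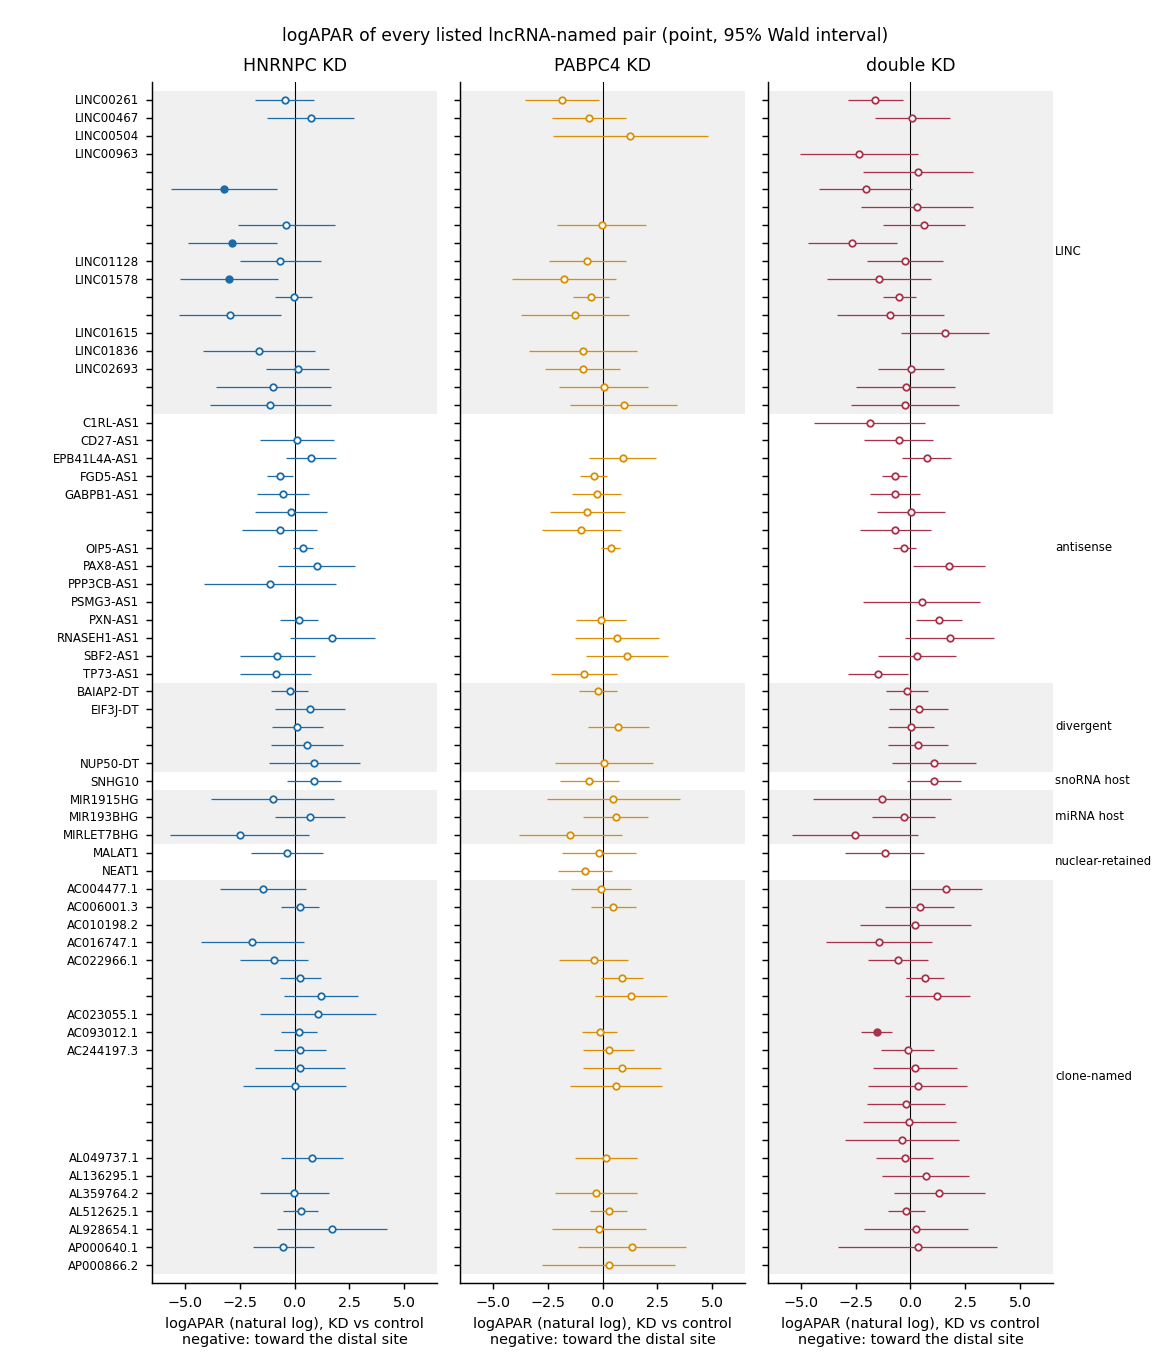
logAPAR (natural log) of every listed lncRNA pair in each table, with 95% Wald intervals. Rows are pairs, grouped by gene and class, a pair absent from a table has no point, and filled points passed p 0.01. Filled points are 3 in HNRNPC KD, from LINC00963 and LINC01578, 0 in PABPC4 KD and 1 in double KD, AC093012.1.

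Across all lncRNA-named pairs, HNRNPC KD had a median logAPAR of −0.03, PABPC4 KD −0.08 and double KD −0.10. Over all pairs the median was 0.01 in each table. Pairs of genes annotated as lncRNA had medians of −0.36 (41 pairs), −0.16 (36 pairs) and −0.07 (46 pairs). Of these, 25, 22 and 23 pairs in the same order went toward the distal site. Of all lncRNA-named pairs, 28 of 52, 25 of 46 and 31 of 60 went toward the distal site. Over all pairs these counts were 2906 of 5861, 2950 of 5953 and 3200 of 6461. The values ranged from −3.22 to 1.72, from −1.86 to 1.35 and from −2.66 to 1.79. The median SE of lncRNA pairs was 0.848, 0.864 and 0.896, where all pairs had 0.814, 0.806 and 0.820. The smallest SE belonged to OIP5-AS1, at 0.238, 0.226 and 0.271. At the median SE a lncRNA pair needed an absolute logAPAR of 2.19 in HNRNPC KD and 2.31 in double KD to pass p 0.01, an 8.89-fold and a 10.1-fold change of the ratio. A pair with a smaller SE could pass with a smaller change, as that of AC093012.1 did in double KD, so what was detectable varied from pair to pair.

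**Figure D4:**
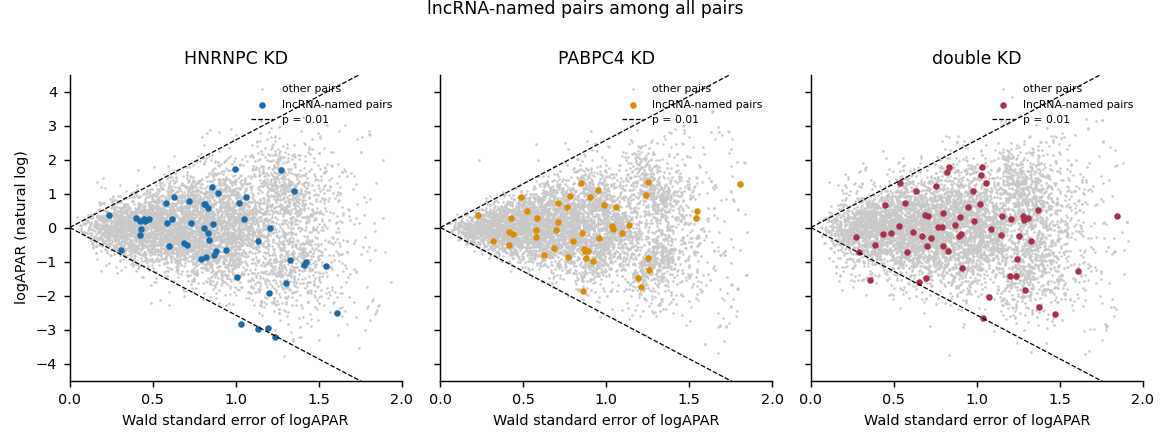
logAPAR (natural log) against its Wald SE for all pairs (grey) and lncRNA pairs (coloured), with dashed lines at p 0.01. Not drawn are pairs with a p of 1 and so no SE (1, 2 and 2 from left to right) and 1 pair of PABPC4 KD with an SE of 2 or more, none of them lncRNA. The smallest SE is 0.238, 0.226 and 0.271 among the lncRNA points and 0.0445, 0.0454 and 0.0438 among all pairs, and 3, 0 and 1 lncRNA points lie outside the dashed lines.

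The classes differed in their medians, given here as descriptions. The 18 LINC pairs, from LINC00261, LINC00467, LINC00504, LINC00963, LINC01128, LINC01578, LINC01615, LINC01836 and LINC02693, had a median of −0.96 under HNRNPC KD, of −0.66 under PABPC4 KD and of −0.25 under double KD. Of the LINC pairs listed, 11 of 13, 9 of 12 and 10 of 16 had a negative value. LINC00963 and LINC01578 together hold 9 of the 18 pairs, and pairs of 1 gene share sites and are not independent.

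The 15 antisense pairs, from C1RL-AS1, CD27-AS1, EPB41L4A-AS1, FGD5-AS1, GABPB1-AS1, OIP5-AS1, PAX8-AS1, PPP3CB-AS1, PSMG3-AS1, PXN-AS1, RNASEH1-AS1, SBF2-AS1 and TP73-AS1, had medians of −0.15, −0.17 and −0.13, and none passed p 0.01. OIP5-AS1, an abundant and conserved lncRNA, had 0.38 ± 0.24 under HNRNPC KD, 0.37 ± 0.23 under PABPC4 KD and −0.28 ± 0.27 under double KD. Its sites had at least 13.6 reads per group in each table. The distal ends of TP73-AS1 and EPB41L4A-AS1 overlap exons of TP73 and EPB41L4A on the opposite strand. GABPB1-AS1 had reads at 3 sites that were 15.3, 4.24 and 7.76 in control and 14.0, 3.97 and 14.6 in double KD, in the order ENST00000659570, ENST00000667317 and ENST00000668321, and its pairs ranged from −0.97 to 0.02.

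The 5 divergent pairs, from BAIAP2-DT, EIF3J-DT and NUP50-DT, had medians of 0.56, 0.07 and 0.34, with values from −0.22 to 1.08, and none passed p 0.01. The 22 clone-named pairs came from AC004477.1, AC006001.3, AC010198.2, AC016747.1, AC022966.1, AC023055.1, AC093012.1, AC244197.3, AL049737.1, AL136295.1, AL359764.2, AL512625.1, AL928654.1, AP000640.1 and AP000866.2. Their medians were 0.24, 0.27 and 0.22, and AC093012.1 in double KD was the 1 pair past p 0.01. This class holds all 12 pairs of protein-coding genes, 6 of them from AC244197.3, and, by gene identifier, the pseudogenes AC006001.3 and AL049737.1. Its medians are therefore not those of lncRNA genes only, and here too pairs of 1 gene are not independent. The most used site among the genes whose reads could be rebuilt was that of AC244197.3 at chrX:148560302 (minus strand, build not named), with 159 reads in control and 138, 165 and 194 in the KDs of HNRNPC, PABPC4 and both, which was 93.4 to 95.9% of the reads at the 3 rebuilt sites out of the 4 that the gene has.

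The microRNA and small RNA hosts are of interest because the choice of end can include or leave out the hairpin. In MIRLET7BHG, on chromosome 22, the proximal end at 46111475 lies before the hairpins MIRLET7A3 (46112749 to 46112822), MIR4763 (46113566 to 46113657) and MIRLET7B (46113686 to 46113768), and the distal end at 46113928 lies after them. Of the 2 listed forms, only the distal form therefore spans the let-7 hairpins. Their main products, mature sequences from RefSeq (GRCh38.p14), share a seed, bases 2 to 8, in capitals.
hsa-let-7a-5p: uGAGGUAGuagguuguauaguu
hsa-let-7b-5p: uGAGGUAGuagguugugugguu
MIRLET7BHG had a logAPAR of −2.51 ± 1.61 under HNRNPC KD, −1.47 ± 1.19 under PABPC4 KD and −2.54 ± 1.47 under double KD. These are among the most negative lncRNA values, but each 95% interval included 0, from −5.67 to 0.64, from −3.81 to 0.87 and from −5.42 to 0.35. The proximal end holds an Alu word and is followed by A-rich genomic sequence.

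In MIR193BHG, on chromosome 16, both ends (14328939 and 14331067) lie after the hairpins MIR193B and MIR365A, and logAPAR was 0.70 ± 0.81, 0.59 ± 0.76 and −0.31 ± 0.72 in the order HNRNPC KD, PABPC4 KD and double KD. MIR1915HG, host of MIR1915, had −1.0 ± 1.42, 0.48 ± 1.54 and −1.29 ± 1.61. SNHG10, host of the Cajal body RNA SCARNA13, had 0.89 ± 0.63, −0.61 ± 0.69 and 1.06 ± 0.63. None of the hosts passed p 0.01.

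NEAT1 and MALAT1 are abundant nuclear RNAs, NEAT1 being the scaffold of paraspeckles and MALAT1 a component of nuclear speckles. The long form of NEAT1 and mature MALAT1 have no poly(A) tail, since RNase P cuts their 3′ ends, and they end near A-rich sequence that the genome encodes. NEAT1 was listed in the PABPC4 KD table only, where the short form (end at 65426513) against the long form (65445540) had −0.80 ± 0.63. The microRNA hairpin MIR612 lies between them. MALAT1 had −0.36 ± 0.84 under HNRNPC KD, −0.16 ± 0.85 under PABPC4 KD and −1.18 ± 0.91 under double KD, from ENST00000618925 to ENST00000534336. Neither gene passed p 0.01 in the tables that listed it.

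To ask whether the KDs differed from each other, the tables were subtracted. The shared control cancels in the difference of 2 tables but not in double KD minus the sum of the single KDs. The SE, which adds the variances of all the tables used, counts the control more than once and is an upper bound. For double KD minus PABPC4 KD, 1 of 42 lncRNA pairs passed p 0.01 (all 5185 pairs, 1.72%). For double KD minus HNRNPC KD, 1 of 49 passed (all 5170 pairs, 1.43%). For double KD minus the sum of the single KDs, 0 of 42 passed (all 4692 pairs, 1.04%). For HNRNPC KD minus PABPC4 KD, a comparison added after the data were seen, 0 of 43 passed (all 4997 pairs, 0.660%). The pair that passed against either single KD was that of AC093012.1 (IRAK4). Its difference was −1.41 ± 0.54 against PABPC4 KD (Wald chi-square p = 0.00972, adjusted p = 0.579) and −1.74 ± 0.55 against HNRNPC KD (p = 0.00171, adjusted p = 0.221). From the summed single KDs it departed by −1.61 ± 0.69 (Wald chi-square p = 0.0197, adjusted p = 1.00).

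Other lncRNA pairs are named because their unadjusted p in a difference was below 0.05. AC004477.1 (NFE2L1-DT) was higher in double KD than in HNRNPC KD by 3.09 ± 1.30 (Wald chi-square p = 0.0176), and it exceeded the sum of the single KDs by 3.17 ± 1.47 (p = 0.0315). OIP5-AS1 departed from the sum by −1.03 ± 0.43 (Wald chi-square p = 0.0157). Their adjusted p-values were 1.00. For LINC00963 the difference of double KD minus HNRNPC KD was 0.18 ± 1.46 from ENST00000664811 to ENST00000419300, with a 95% interval of −2.69 to 3.04, too wide to say whether the loss of PABPC4 beside HNRNPC altered it.

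Where reads could be rebuilt, a smaller error was computed that leaves out the control's reads where the control cancels and counts them once in double KD minus the sum. With it, 2 of 21 lncRNA pairs passed p 0.01 for double KD minus HNRNPC KD (all rebuilt pairs, 3.33%). For double KD minus PABPC4 KD 0 of 15 passed (all, 4.99%), as did 0 of 15 for double KD minus the sum (all, 2.34%). For HNRNPC KD minus PABPC4 KD 1 of 15 passed (all, 2.26%). All these pairs were of LINC01578 and end at ENST00000557682. In double KD minus HNRNPC KD there were 2 such pairs. From ENST00000554133 the difference was 1.57 ± 0.53 (Wald chi-square p = 0.00342, adjusted p = 0.169) and from ENST00000653163 it was 2.04 ± 0.61 (p = 8.8e-04, adjusted p = 0.0617). The shift of this gene to its most distal end was thus smaller in double KD than in HNRNPC KD alone by this error, but not after adjustment, and with the upper-bound error the same differences had Wald chi-square p = 0.343 and p = 0.236. HNRNPC KD minus PABPC4 KD was −1.72 ± 0.64 from ENST00000653163 (Wald chi-square p = 0.00728, adjusted p = 0.392), again toward the distal end in HNRNPC KD, and with the upper-bound error it had Wald chi-square p = 0.321. The error from reads has no term for the spread between replicates either.

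**Figure D5:**
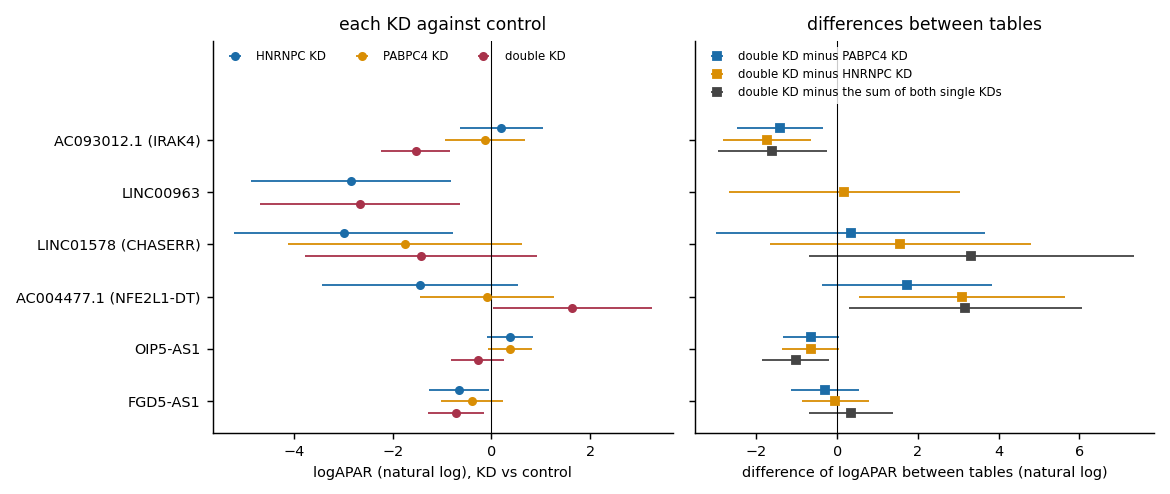
Left, logAPAR (natural log) of 6 lncRNA-named genes in each KD against control, and right, the differences between tables, with 95% intervals (right, from the upper-bound SE). For LINC00963 and LINC01578 the pair of smallest p is drawn. AC093012.1 stands at −1.54 in double KD and on the right at −1.41 against PABPC4 KD and −1.74 against HNRNPC KD, and LINC00963 has no point for PABPC4 KD.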

How the data were processed

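RNA 3′ ends of 8 MDA-MB-231 samples were sequenced with QuantSeq REV, which primes on poly(A) with oligo(dT). The authors counted reads at unique Gencode transcript ends with Salmon 0.14.1 and compared groups with APAlog, a multinomial logistic regression. UMI-tools is also named in the submitters' notes, with its use on these libraries not given. The deposited values are logAPAR on a natural log scale, with a p-value and a corrected q-value (deposited p-values; Benjamini-Hochberg over each table returned the deposited q-values). These columns are the authors' comparisons of pooled replicates, and no model was refitted. SE was the absolute logAPAR over the normal quantile of p. Differences between tables added the variances of every table used. Reads were solved from the SEs at genes with at least 3 shared sites; natural log left a smaller misfit than log2 at 99.6% of 680 genes. The scripts were tested on simulated data. Sequences came from Gencode release 44 on hg38, for transcripts with the same version, and from RefSeq for microRNAs (all let-7 products printed were matched by symbol). Named genes were those with a pair past p 0.01 in a table or difference, and every snoRNA host, microRNA host, NEAT1 and MALAT1. Other genes given with values were named after their values were seen, mainly at p below 0.05. Members, lists and tests were chosen with earlier results of these data known. Calculations used Python 3 with numpy, pandas and scipy. Alternatives were adjusted p 0.05, p 0.001, p 0.05, 1 pair per gene, pairs of all tables, a limit of 5 on absolute logAPAR, an SE below 1, annotated lncRNA genes, no clone-named genes, errors from reads and other motif windows.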

Additional observations from a re-analysis of the deposited data

Results flagged for a closer look

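The effect of double KD against control differed from that of either single KD for the pair of AC093012.1 (IRAK4), by the unadjusted test of the difference itself: double KD minus PABPC4 KD was −1.41 (unadjusted Wald chi-square p = 0.00972) and double KD minus HNRNPC KD was −1.74 (unadjusted p = 0.00171), and neither passed after adjustment over all shared pairs (adjusted p = 0.579 and 0.221). Whether the effect of one KD depended on the other is tested by double KD minus the sum of the single KDs, which was −1.61 ± 0.69 (unadjusted Wald chi-square p = 0.0197, adjusted p = 1.00) and did not pass p 0.01. The gene has 2 listed sites, so its reads could not be rebuilt.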

How the results depend on the processing

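Of 51 alternative values, counts of lncRNA pairs past p 0.01 moved most. In HNRNPC KD the 3 pairs became 0 with the adjusted threshold of 0.05, 0 with the stricter p of 0.001 and 1 among pairs listed in all 3 tables, and 5 at p 0.05, a threshold added after the data were seen. In PABPC4 KD the count was 0 throughout and 1 at p 0.05. In double KD the 1 pair became 0 when only annotated lncRNA genes were kept, 0 without clone-named genes and 8 at p 0.05. For double KD minus PABPC4 KD the 1 pair became 0 at an adjusted p of 0.05 and 0 with errors from reads, which cannot be had for AC093012.1. For double KD minus HNRNPC KD it became 0 at an adjusted p of 0.05 and 2 with errors from reads, the pairs of LINC01578. The share of proximal lncRNA ends with a T run was 9.09% (3 of 33) for at least 8 T. Among all proximal ends that share was 2.06% (28 of 1356). The median logAPAR in HNRNPC KD ranged from −0.37 without clone-named genes to 0.14 at SE below 1, so its sign is not settled; the medians of the other tables stayed negative. Fewer pairs enter under each restriction; no other cause was tested. No paired analysis was possible because no values of single libraries are in the tables, and leaving out a replicate was not possible for the same reason. At the median SE, changes of the ratio below 8.89-fold (HNRNPC KD) to 10.1-fold (double KD) could not pass p 0.01.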
